A study of Drosophila melanogaster with 596 samples.

Results

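Antimicrobial peptides are small secreted proteins with which flies kill bacteria and fungi. In Drosophila melanogaster the fat body releases most of them into the haemolymph, and epithelia and the fat body of the head make them too. The genes are switched on mainly by the Toll pathway, which answers fungi and many Gram-positive bacteria, and the Imd pathway, which answers the peptidoglycan of Gram-negative bacteria. Each pathway ends in transcription factors of the NF-kappa B family, and many of the peptide genes take input from both pathways.

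The CG numbers of 10 classical peptide genes were looked for, and 2 of the 10 have a row in the processed table, among 7422 genes in all. The first is Drs (CG10810, chromosome arm 3L), which encodes drosomycin, an antifungal peptide and the usual readout of Toll signalling. The other is DptB (CG10794, arm 2R), which encodes diptericin B, a peptide active against Gram-negative bacteria and a usual readout of Imd signalling. Each has 1 row, with no row of identical values elsewhere in the table. Mtk (CG8175), DptA (CG12763), AttA (CG10146), AttB (CG18372), AttC (CG4740), AttD (CG7629), CecA1 (CG1365) and Dro (CG10816) were not analysed here. The family is therefore described by 1 classical Toll target and 1 classical Imd target.

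Expression was measured on NimbleGen arrays in head RNA from 596 crosses of the Drosophila Synthetic Population Resource, a panel of recombinant inbred lines (RILs) whose genomes are mosaics of inbred founder strains. Of these, 63.4% joined pA1 mothers to pB2 fathers (pA1 x pB2) and 36.6% joined pA2 mothers to pB1 fathers (pA2 x pB1). Every cross has 1 column, labelled as a pool of about 300 heads from females 3 to 5 days old. The females were kept on standard food with no infection or other treatment described, and were probably mated, since virgins were not separated. A pair of pA1 x pB2 crosses was prepared a second time by the authors, but each has a single column here, so no spread within a cross can be given. The labels tell the 2 groups apart by their parental panels.

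The deposited values are scores, not levels. The authors turned every transcript into normal quantiles, removed subpopulation and 10 principal components, and ranked what was left onto normal quantiles once more, so every one of the 11064 transcripts has an SD between 0.983 and 1.007 and values between -3.15 and 3.15. How strongly Drs or DptB was expressed, how far expression varied in fold terms, and whether the crosses of one panel had more of either peptide than those of the other cannot be read from such values. What remains is which crosses scored high or low for a gene after that removal, and which genes scored high in the same crosses. By the paper's account, a regulator acting on very many genes cannot be found after this correction. What the removal by the authors took from or added to the correlations was not tested. The heads are bulk tissue, in which fewer cells of a type and less RNA per cell cannot be told apart.

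Drs and DptB scored high in the same crosses. Over all 596 crosses the correlation of their scores was r = 0.67, with a 95% confidence interval of 0.63 to 0.71, and Spearman's rho was also 0.67. In 100000 two-sided permutations both gave p = 1e-05, the smallest value they can give, and limma's adjusted p over all transcripts was 1.24e-68. Without the 2 crosses farthest from the median Drs score, r was 0.67. DptB had the largest absolute r with Drs of all other genes in the table. For DptB, only BaraA2, BaraA1 and PGRP-SB1 came before Drs. The single axis that best summarises both genes held 83.6% of their joint variance. For 2 scores of nearly equal SD this share is set by r, so it restates the correlation.

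Cross by cross, both scores were above 0 in 37.2% of crosses and both were below 0 in 37.1%. They had opposite signs in 75 crosses with Drs above 0 and in 76 crosses with DptB above 0. Both exceeded 1 in 52 crosses, against 95 crosses with Drs above 1 and 95 with DptB above 1, and both lay below -1 in 43. No cross had one gene above 1 and the other below -1. The highest 30 crosses for each gene shared 14, or 46.7%, whereas the lowest 30 shared 7, or 23.3%. The shared variation therefore ran through the whole range, with more overlap counted at the high end.

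**Figure D1:**
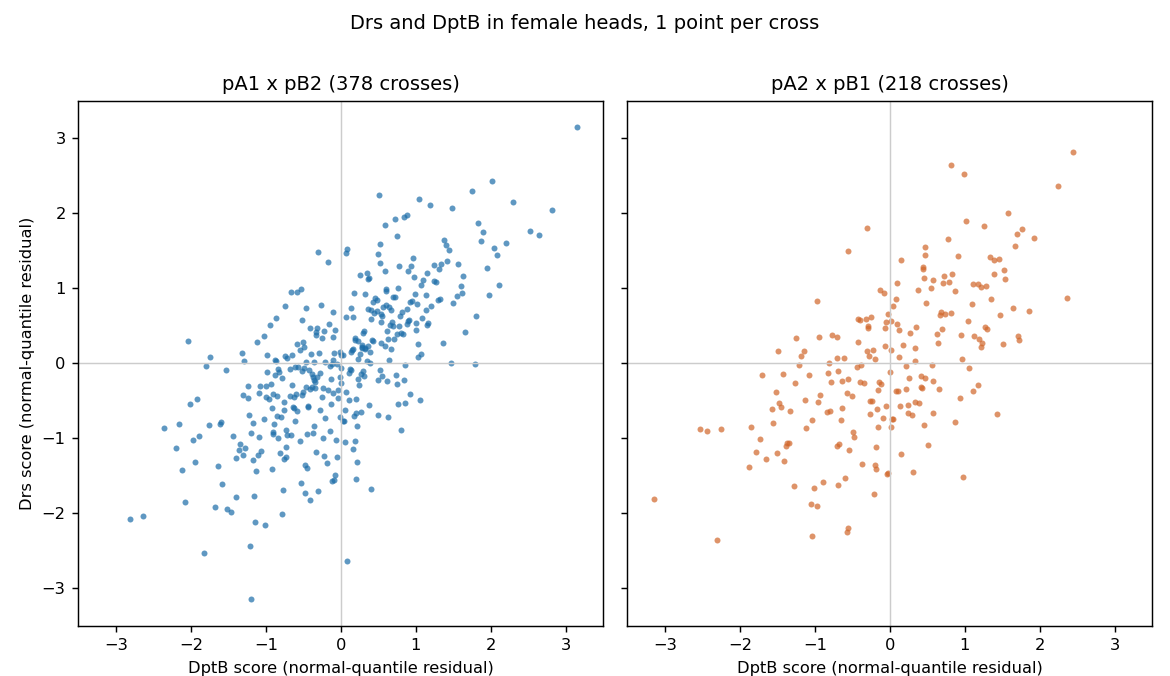
Score of Drs (vertical axis) against score of DptB (horizontal axis), both normal-quantile residuals without a unit, in pA1 x pB2 crosses (left) and pA2 x pB1 crosses (right). Each point is 1 cross, and the grey lines mark 0. The points run along the diagonal in both panels, with r of 0.70 in pA1 x pB2 and 0.62 in pA2 x pB1.

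The relation was present in each group. In pA1 x pB2 the Drs scores ran from -3.15 through a median of 0.0145 to 3.15, and the DptB scores from -2.81 through 0.00207 to 3.15. In pA2 x pB1 the Drs scores ran from -2.36 through -0.0332 to 2.81, and the DptB scores from -3.15 through 0.0104 to 2.44. These ranges overlap over most of their width. The removal of subpopulation by the authors brings the group means together but does not fix the ranges. The correlation of the members was 0.70 in pA1 x pB2 (95% confidence interval 0.65 to 0.75) and 0.62 in pA2 x pB1 (0.53 to 0.70). The slope did not pass the test of a difference between the groups, with an interaction adjusted p of 0.763 for DptB fitted on Drs and 0.638 for Drs fitted on DptB (limma).

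The crosses at either end were not of one group. By the mean of both scores, the highest was the cross of lines 11118 and 22118, at 3.15 for Drs and 3.15 for DptB, the top of the scale for each. Next came 12250 by 21250 (Drs 2.81, DptB 2.44), 11099 by 22099 (2.04 and 2.81), 12098 by 21098 (2.36 and 2.25) and 11128 by 22128 (2.15 and 2.30). BomS5, PGRP-SB1, Tsf1 and CG4757, described below, were above 0 in all 5 of these crosses. The lowest was 12150 by 21150, at -1.81 for Drs and -3.15 for DptB, and the others were 11153 by 22153 (-2.08 and -2.81), 11186 by 22186 (-2.04 and -2.64), 12147 by 21147 (-2.36 and -2.30) and 11009 by 22009 (-2.53 and -1.83). There the same 4 genes were below 0 with 1 exception, a Tsf1 score of 0.221 in the cross of 11153. These 4 genes correlate with both members over the same crosses. Their signs at the ends therefore follow from the sorting and add no separate support.

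Some crosses parted the members. The widest gap with Drs on top was in 11288 by 22288, at 0.303 for Drs and -2.04 for DptB. The widest gap with DptB on top was in 11138 by 22138, at -2.64 for Drs and 0.079 for DptB. In 12126 by 21126 Drs was at -1.51 and DptB at 0.97. BomS5 was at -2.36 there, CG4757 at -2.53, Tsf1 at -1.09 and PGRP-SB1 at -0.924. In 11288 by 22288 BomS5 was at -0.684, CG4757 at -0.29, Tsf1 at -0.255 and PGRP-SB1 at -0.726. The SD of the gap between both scores over all crosses was 0.807, below the SD of 0.994 for Drs and 0.998 for DptB. It too follows from r.

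Every other transcript was then regressed on each member with limma, and a call was made at an adjusted p under 0.05. With 1 transcript per gene, 5.07% of 7421 genes were positively called with Drs and 4.86% negatively. For DptB the shares were 9.73% (722 genes) and 11.6% (859 genes). These shares are the background for the counts below. For counts within a group the background is the share of all transcripts called in either direction. It was 7.475% with Drs and 17.45% with DptB in pA1 x pB2 alone. In pA2 x pB1 alone it was 0.75% and 1.53%. Most calls were weak, since 11 genes exceeded r = 0.5 with Drs and 13 with DptB, and none fell below -0.5. Over all genes the median r was -0.00728 with Drs and -0.0116 with DptB.

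Other secreted immune effectors led the positive side. Of 8 measured of the 37 listed, 7 were positively called with Drs and 6 with DptB, none negatively, and the median r was 0.40 with Drs and 0.43 with DptB. Within the groups, 6 were positively called with Drs and 6 with DptB in pA1 x pB2, and 4 and 4 in pA2 x pB1. BomS5, a short secreted Bomanin induced by Toll, had r = 0.64 with Drs and 0.57 with DptB. BaraA2 and BaraA1, which encode the antifungal Baramicin A precursor, had r = 0.60 and 0.60 with Drs and 0.70 and 0.70 with DptB. Their scores correlated with each other at 0.999, so these neighbouring near-identical copies count as 1 measurement. Dso2, a Daisho peptide of the Toll response, had r = 0.56 with Drs and 0.60 with DptB.

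The weaker effectors differed in kind. BomT3 had r = 0.24 with Drs and 0.28 with DptB, and BomS6, another Bomanin, had 0.13 and 0.17. BaraB, a relative of Baramicin A, was called with Drs (r = 0.14, adjusted p = 0.0182) and not with DptB (r = 0.09, adjusted p = 0.0923). Drsl5 belongs to the drosomycin family of Drs itself, and it was called with neither: its r was 0.10 with Drs and -0.01 with DptB.

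Peptidoglycan recognition proteins bind the bacterial cell wall and either start the pathways or break the wall fragments down. Of 9 measured of the 16 listed, 7 were positively called with Drs and 7 with DptB, none negatively, with a median r of 0.30 with Drs and 0.30 with DptB. Within the groups, 5 were positively called with Drs and 6 with DptB in pA1 x pB2, and 5 and 4 in pA2 x pB1. The secreted amidase PGRP-SB1 had r = 0.51 with Drs and 0.69 with DptB. PGRP-SC2, an amidase that lowers Imd signalling by digesting peptidoglycan, had 0.52 with Drs and 0.52 with DptB. PGRP-LB, an amidase with the same dampening role, had 0.33 with Drs and 0.49 with DptB. PGRP-LF, a membrane protein that holds the Imd receptor in check, had 0.34 and 0.38.

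The list also holds sensors on the activating side. PGRP-SA, which senses Gram-positive bacteria for Toll, had r = 0.30 with Drs and 0.30 with DptB. PGRP-LE, a sensor for Imd, had 0.13 and 0.15, and PGRP-LA had 0.19 and 0.13. GNBP2 and GNBP3, of the family that includes the fungal sensor of Toll, were called with neither gene, with r of -0.04 and -0.05 with Drs and 0.01 and -0.09 with DptB.

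**Figure D2:**
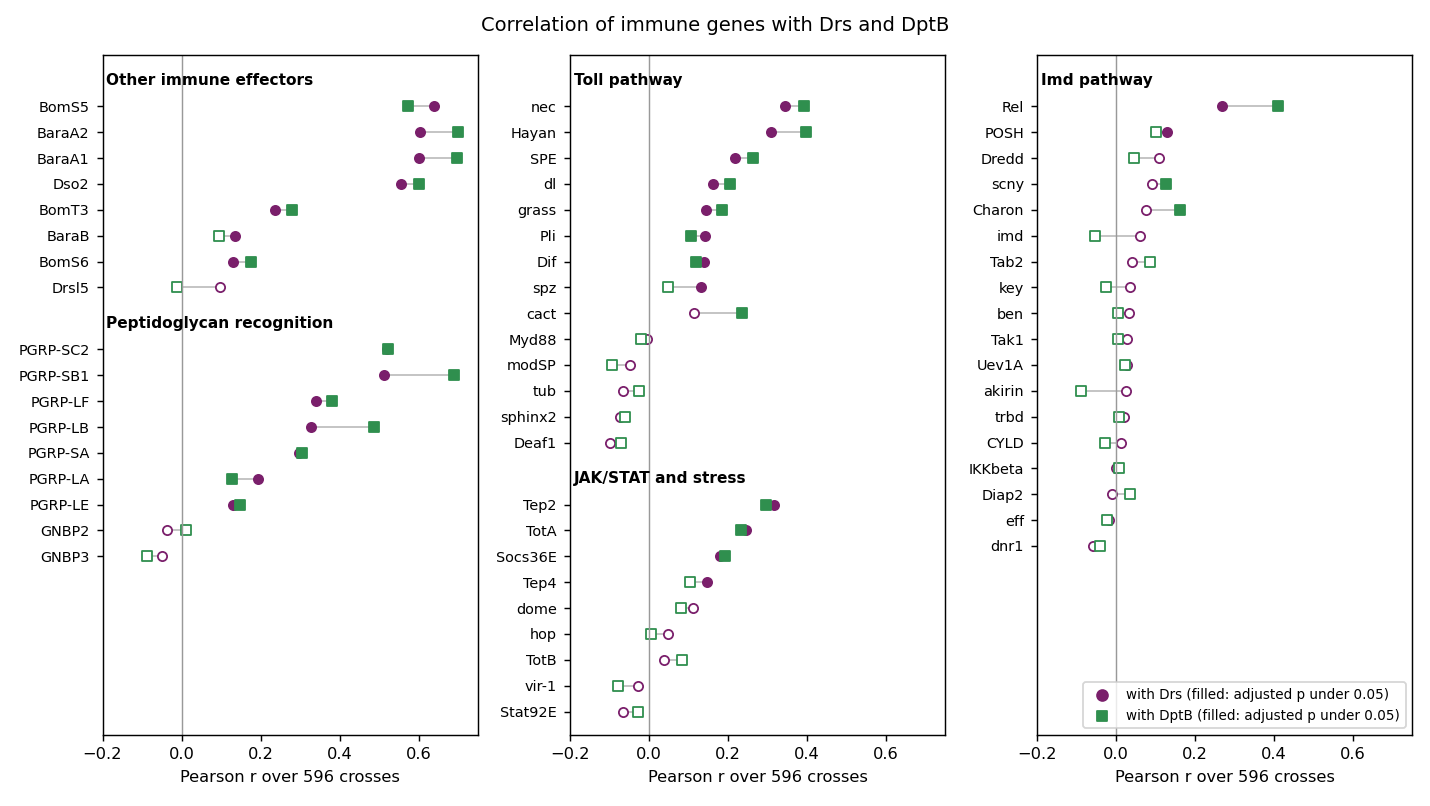
Pearson r over 596 crosses of each measured gene of 5 immune lists with Drs (purple circles) and DptB (green squares). Filled symbols passed limma's test at an adjusted p under 0.05, and a grey line joins both values of a gene. The effectors and the recognition proteins reach 0.70 and 0.69 with DptB, while 16 of 18 genes of the Imd pathway are open for Drs.

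Within the Toll pathway, 8 of 14 measured genes (20 listed) were positively called with Drs and 8 with DptB, none negatively, and the median r was 0.14 with Drs and 0.11 with DptB. Within the groups, 7 were positively called with Drs and 7 with DptB in pA1 x pB2, and 0 and 2 in pA2 x pB1, the group with fewer crosses, where 0.75% and 1.53% of all transcripts were called in either direction. Without the 30 crosses highest for the mean of both members, 4 were called with Drs and 6 with DptB. The strongest were extracellular. The serpin nec, which restrains the protease cascade upstream of Toll, had r = 0.34 with Drs and 0.39 with DptB. The protease Hayan had 0.31 and 0.40, and SPE, the protease that cuts the Toll ligand, had 0.22 and 0.26. The ligand gene spz itself had 0.13 with Drs (adjusted p = 0.0219) and 0.05 with DptB (adjusted p = 0.43).

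Inside the cell, the NF-kappa B factor genes dl and Dif had r = 0.16 and 0.14 with Drs and 0.21 and 0.12 with DptB, although in pA2 x pB1 alone Dif had -0.0484 with DptB. The inhibitor cact, which holds both factors in the cytoplasm and is itself a Toll target, was not called with Drs (r = 0.12, adjusted p = 0.0566) and was called with DptB (r = 0.24, adjusted p = 4.83e-07). The adaptors Myd88 and tub were called with neither, with r of 0.00 and -0.06 with Drs and -0.02 and -0.02 with DptB.

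The Imd pathway showed little of this. Of 18 measured genes (21 listed), 2 were positively called with Drs and 3 with DptB, none negatively, with a median r of 0.03 with Drs and 0.01 with DptB, so that 11.1% of the list was called with Drs and 16.7% with DptB beside 5.07% and 9.73% of all genes. Within the groups, 1 was positively called with Drs and 2 with DptB in pA1 x pB2, and 0 and 1 in pA2 x pB1. Of all transcripts, 7.475% and 17.45% were called in either direction in pA1 x pB2, and 0.75% and 1.53% in pA2 x pB1. The exception in size was Rel, the NF-kappa B factor of the pathway and a gene that the response itself induces, with r = 0.27 with Drs and 0.41 with DptB. The other calls were POSH with Drs (r = 0.13), and Charon (0.16) and scny (0.13) with DptB, which all regulate the pathway. The adaptor imd had r = 0.06 with Drs and -0.05 with DptB, and the kinase genes Tak1 and IKKbeta had 0.03 and 0.00 with Drs and 0.01 and 0.01 with DptB.

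Of 9 measured genes of JAK/STAT and stress responses (19 listed), 4 were positively called with Drs and 3 with DptB, with medians of 0.11 with Drs and 0.09 with DptB. Within the groups, 3 were positively called with Drs and 3 with DptB in pA1 x pB2, where 1 was also negatively called with DptB, and 1 and 1 positively in pA2 x pB1. Without the 30 highest crosses, 2 were positively called with Drs and 3 with DptB. Tep2, a secreted thioester protein, had r = 0.32 with Drs and 0.30 with DptB. TotA, a stress-induced humoral factor, had 0.25 and 0.23, and Socs36E, a feedback inhibitor of JAK/STAT, had 0.18 and 0.19. Tep4 was called with Drs (0.15) and not with DptB (0.10, adjusted p = 0.0536). The receptor dome, the kinase hop and the factor Stat92E were called with neither.

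Outside these lists the strongest correlates of Drs were CG4757, Tsf1, CG16772 and Bbd, of which the last 2 were named after their values were seen. CG4757 had r = 0.64 with Drs and 0.51 with DptB. Tsf1, a secreted iron-binding transferrin that infection induces, had 0.60 and 0.59. CG16772 had 0.53 and 0.57, and Bbd (Bombardier), a secreted protein that short Bomanins need, had 0.51 and 0.50. For DptB, CG13965 (r = 0.51), CG42807 (0.51), CG8303 (0.51) and CG10337 (0.50) also stood above Bbd. Of the 170 pairs of a named gene with a member, 74.1% were called. Genes were largely named for being called or extreme, so this share and the small p-values follow from the choice. Over all genes, 5.07% were called positively and 4.86% negatively with Drs, and 9.73% and 11.6% with DptB. In all called pairs of named genes Spearman's rho had the sign of r and differed from it by at most 0.0489. Leaving out the 2 crosses farthest from the member's median moved r by at most 0.0204, and no permutation p exceeded 0.0195. In 66.7% of them both permutation p-values were the smallest possible.

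The genes with r over 0.5 with both members numbered 9, a set chosen after the values were seen. They were CG4757, BomS5, BaraA2, Tsf1, BaraA1, Dso2, CG16772, PGRP-SC2 and PGRP-SB1. Their 36 correlations with each other ran from 0.28 to 0.999 with a median of 0.61. Dso2 stood with BaraA2 (0.78), CG16772 (0.73) and PGRP-SB1 (0.71). PGRP-SC2 stood apart: its r was 0.52 with Drs and 0.52 with DptB but only 0.28 to 0.37 with the other 8. The mean score of the 9 genes had r = 0.73 with Drs and 0.77 with DptB, and the partial correlation of Drs with DptB given that mean was 0.25, against 0.67 without it. Given BaraA2 alone it was 0.44, and given PGRP-SC2 alone 0.55. These genes were picked for their r with both members in the same crosses, and BaraA enters the mean through both copies. A lower partial correlation is therefore built in and tests nothing about what the members share.

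**Figure D3:**
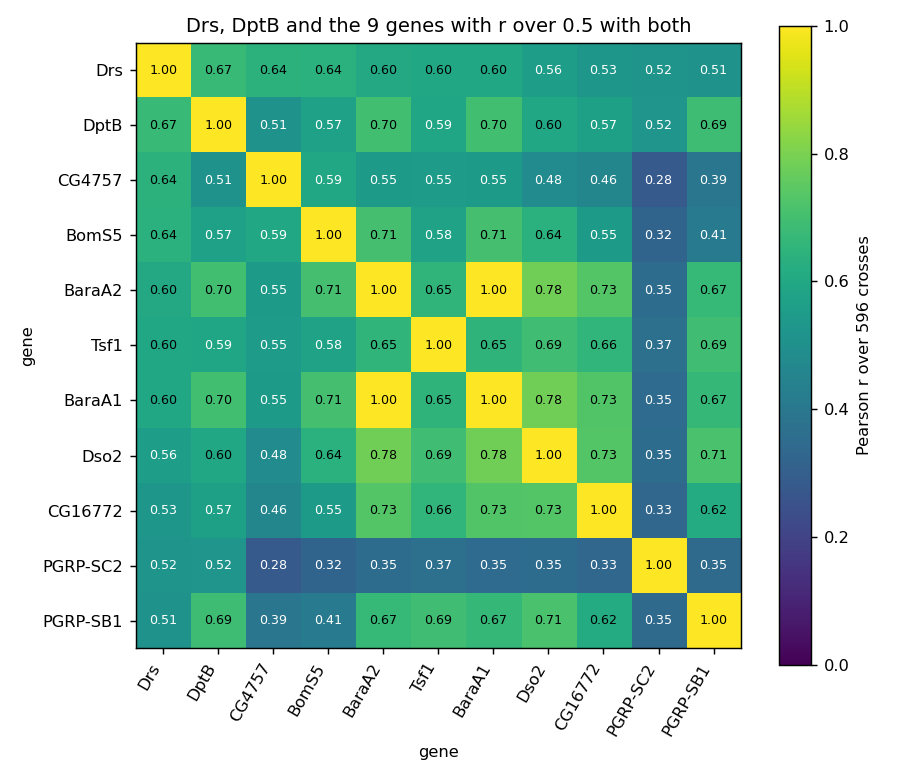
Pearson r over 596 crosses between Drs, DptB and the 9 genes with r over 0.5 with both, as numbers and as colour from 0 to 1. The row of PGRP-SC2 shows 0.52 with Drs and with DptB and values of 0.28 to 0.37 elsewhere, and BaraA1 and BaraA2 share nearly the same row.

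Because Drs and DptB share so much, each transcript was also fitted on both scores together, and the slope on Drs was compared with the slope on DptB, a fit chosen after seeing the data. Slopes are in score units of the gene per score unit of the member. Of 7420 genes, 2.08% had the larger slope on Drs and 1.89% on DptB. Among immune genes the clearest differences lay on the DptB side. PGRP-SB1 had a slope of 0.09 on Drs and 0.63 on DptB, a difference of -0.54 with an SE of 0.0777 (adjusted p = 9.12e-08). PGRP-LB had 0.00 on Drs and 0.49 on DptB, a difference of -0.48 with an SE of 0.0909 (adjusted p = 0.000132).

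Rel had a slope of -0.01 on Drs and 0.42 on DptB, a difference of -0.43 with an SE of 0.0941 (adjusted p = 0.00135). All 3 genes are known targets or parts of the Imd response. Whether genes tied to Imd lean to DptB as a set was not tested. Of 18 measured genes of the Imd list, 2 had the larger slope on Drs (imd and akirin, below) and 1 on DptB (Rel). Of 9 measured recognition genes, 0 had the larger slope on Drs and 2 on DptB (PGRP-SB1 and PGRP-LB). PGRP-LF, which holds the Imd receptor in check, differed by -0.12 and did not pass (adjusted p = 0.508). Taken on ranks, the differences of PGRP-SB1, PGRP-LB and Rel passed again, with adjusted p = 6.31e-08, 0.00353 and 0.000139. In pA2 x pB1 alone they had differences of -0.41, -0.44 and -0.45 that did not pass, and in pA1 x pB2 alone Rel did not pass either (-0.42, adjusted p = 0.0616). The inhibitor cact differed by -0.36 (adjusted p = 0.0151), with -0.62 in pA1 x pB2 alone and -0.02 in pA2 x pB1 alone. BaraA2 differed by -0.29 (adjusted p = 0.0121), though it kept a slope of 0.25 on Drs. On ranks the differences of cact and BaraA2 did not pass (adjusted p = 0.1 and 0.0602). PGRP-SC2 had slopes of 0.31 on Drs and 0.31 on DptB, a difference of -0.01 with an SE of 0.0858 (adjusted p = 0.985).

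On the side of Drs, CG4757 had a slope of 0.55 on Drs and 0.14 on DptB, a difference of 0.41 with an SE of 0.081 (adjusted p = 0.000243). It had 0.26 in pA1 x pB2 alone (adjusted p = 0.175) and 0.61 in pA2 x pB1 alone (adjusted p = 0.00889). BomS5 leaned the same way, with 0.46 on Drs and 0.27 on DptB, but its difference of 0.20 did not pass (adjusted p = 0.146). Drsl5 (difference 0.33, adjusted p = 0.0368), imd (0.35, adjusted p = 0.0288) and akirin (0.35, adjusted p = 0.0269), a nuclear cofactor of Rel, also passed with the larger slope on Drs. None of these last 3 was called with either member alone, and on ranks none passed (adjusted p = 0.175, 0.0716 and 0.0843). Tsf1 and Dso2 had differences of 0.03 and -0.14 and did not pass (adjusted p = 0.887 and 0.359).

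Outside the immune lists the widest differences belonged to 5 genes whose r with either member alone ran from -0.31 to 0.24. CG6126 had the largest toward Drs, at 0.61 (adjusted p = 3.08e-06), made of a slope of 0.18 on Drs and -0.43 on DptB. After 10 further components were removed it was 0.34 (adjusted p = 0.0194). CG12159 came next on that side, at 0.55 (adjusted p = 7.83e-05), with slopes of 0.27 and -0.28. Toward DptB the largest were Obp28a, an odorant binding protein (-0.56, adjusted p = 6.11e-05), OS9, a lectin of protein quality control in the endoplasmic reticulum (-0.56, adjusted p = 6.11e-05), and Alg2, an enzyme of N-glycan assembly (-0.54, adjusted p = 0.000109). In pA2 x pB1 alone CG12159 and Alg2 passed (adjusted p = 0.0166 and 0.013), and CG6126, Obp28a and OS9 did not (0.197, 0.106 and 0.221).

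**Figure D4:**
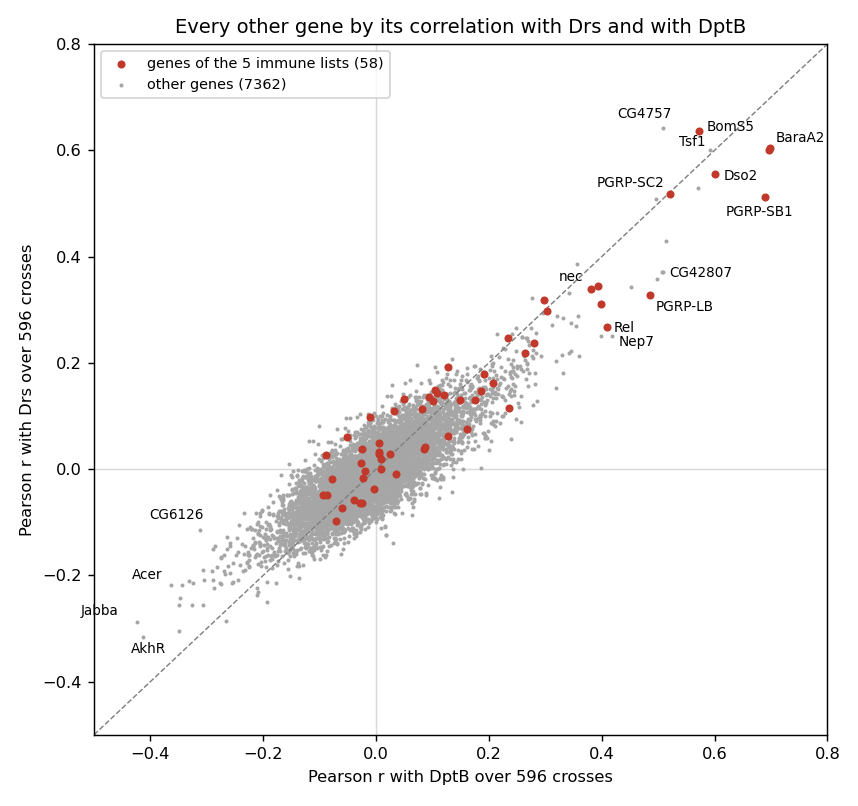
Each point is 1 of 7420 genes, by its Pearson r with Drs (vertical axis) and with DptB (horizontal axis) over 596 crosses. Red points are the 58 measured genes of the 5 immune lists, grey points all others, and the dashed line marks equal r. PGRP-SB1, PGRP-LB and Rel lie below the line and CG4757 above it, while AkhR has -0.32 with Drs and -0.41 with DptB and Jabba has -0.29 and -0.42.

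Markers of other cell types went both ways with the members. Of 10 measured fat body markers (12 listed), 2 were positively and 3 negatively called with Drs, and 2 and 2 with DptB, with a median r of -0.03 and -0.01. The positive calls were Tsf1, described above, and fon, a clotting factor (0.14 with Drs and 0.24 with DptB). The yolk proteins Yp1, Yp2 and Yp3, which the female fat body makes in bulk, had r of -0.04, -0.12 and -0.04 with Drs, of which Yp2 was called. The other negative calls were the fatty acid synthase gene FASN1 (-0.24 with Drs and -0.21 with DptB) and the lipid droplet gene Lsd-1 (-0.24 and -0.35). The mean of the fat body markers had r = -0.01 with Drs and 0.06 with DptB.

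For haemocytes, 1 of 10 measured markers (15 listed) was positively and 1 negatively called with Drs, and 1 and 3 with DptB. The phagocyte receptor NimC1 had r = -0.18 with Drs and -0.22 with DptB, and srp, a GATA factor of blood and fat body, had 0.16 and 0.21. The mean of the haemocyte markers had r = -0.05 with Drs and -0.09 with DptB, and these means average markers of opposite sign. What part cell content has in the correlation of the members was not tested. Of 11 muscle markers, 0 were positively and 1 negatively called with Drs, and 3 and 1 with DptB. The positive calls with DptB made up 27.3% of the muscle list, beside 9.73% of all genes and 16.7% of the Imd list. Glia (6 measured), photoreceptors (7), gut (3) and ovary (1) had at most 1 call each with either gene.

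Neighbours on the chromosome were also compared. The genes next to Drs in the gene table, kst and Ythdc1, had r = 0.07 and -0.03 with Drs, and neither was called. No gene next to DptB was measured, and DptA, which adjoins it, was not analysed here. The nearest measured genes were Jheh2, 6 genes away, and prod, 4 genes away on the other side. Their r with DptB was 0.09 and -0.10 over all crosses, and neither was called. In pA1 x pB2 alone prod reached -0.19 and was called, and in pA2 x pB1 alone it had 0.06.

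A few genes tracked DptB differently in the 2 groups. The slope on DptB differed between groups for 22 of 11063 transcripts (0.199%), and the slope on Drs for 9 (0.0814%). The smallest adjusted p-values for DptB belonged to p115 and CG32512 (0.000978 each), shv (0.00252) and CG6675 (0.00326), with r of 0.33, 0.38, 0.41 and 0.40 in pA1 x pB2 and -0.10, -0.03, 0.03 and 0.02 in pA2 x pB1. Not all ran this way, since bun had 0.04 in pA1 x pB2 and -0.28 in pA2 x pB1 (adjusted p = 0.0291). Among immune genes, PGRP-SA had r = 0.41 with DptB in pA1 x pB2 and 0.09 in pA2 x pB1 (interaction adjusted p = 0.0118). The serpin nec had 0.48 and 0.21 (adjusted p = 0.022). Among genes with r over 0.5 with a member, CG42807 had 0.61 in pA1 x pB2 and 0.32 in pA2 x pB1 (adjusted p = 0.0118). The peptide effectors did not pass this test, with BaraA2 at 0.71 in pA1 x pB2 and 0.67 in pA2 x pB1 (adjusted p = 0.377) and BomS5 at 0.60 and 0.54 (adjusted p = 0.99). Other effectors differed more between the groups, also without passing. BomT3 had 0.37 and 0.12 with DptB (adjusted p = 0.134), BomS6 0.26 and 0.04 (adjusted p = 0.303), and Dso2 0.67 and 0.49 (adjusted p = 0.26).

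Neighbouring line numbers were compared as well. Between neighbouring line numbers of pA1 x pB2 the scores correlated at 0.0963 for Drs and 0.098 for DptB. Both lay above the median of all transcripts (0.0262). They were inside the 5th to 95th percentile of all transcripts (-0.0659 to 0.116), near its upper end. In pA2 x pB1 the values were 0.051 for Drs and 0.014 for DptB (all transcripts -0.0694 to 0.208, median 0.0631). With the mean of the 12 nearest lines subtracted, the correlation of the members was 0.66. The median score of a cross over all transcripts ran from -0.277 to 0.637 and had r = -0.03 with Drs and -0.06 with DptB. Which crosses shared an array is not given in the sources used here, so arrays could not be treated as a block.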

How the data were processed

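Head RNA from 596 crosses (378 pA1 x pB2, 218 pA2 x pB1) was hybridised by the authors to NimbleGen arrays. Per the study's methods and the submitters' processing notes (oligo, RMA), they normalized the signals, remapped probes to coding sequences of Release 5, removed probes with several single-base variants, or with 1 that affected the measurement, and transcripts with few probes, and averaged highly correlated transcripts. The deposited values are a score: the authors turned each transcript into normal quantiles, regressed out subpopulation and 10 principal components, and ranked the residuals onto normal quantiles. Signal over background is not kept, and the number of crosses limits the precision. All 596 columns matched a sample.

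Here each of 11063 transcripts was regressed on the score of Drs or DptB (limma 3.58.1, lmFit and eBayes, R 4.3.3), with Benjamini-Hochberg adjustment over all other transcripts and calls at adjusted p under 0.05. For counts of genes, the transcript with the largest absolute r stood for its gene. Interaction terms tested subpopulation cross. The joint fit of both members was added after seeing the data. P-values measure the spread between crosses. Correlations were tested with 100000 two-sided permutations (Python 3.11.15, numpy 2.4.6). The fits were tested on simulated data. Symbols and neighbours came from the Release 6 gene table, in which 7349 of 7422 genes matched.

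The genes named are the members, the 3 other genes with the largest absolute r per member, at most 4 called genes per list, the neighbours and the crosses at either end. CG16772, Bbd, CG42807, Drsl5, imd, akirin, cact, PGRP-SA, the negative correlates, the genes of the joint fit and of the interaction test, and further list genes were chosen for naming once values were known. The members and lists were chosen with earlier results of these data known. Sequences and founder haplotypes were not used here. Alternatives are given in the closing section.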

Additional observations from a re-analysis of the deposited data

Results flagged for a closer look

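Of 22 transcripts whose slope on DptB differed between the groups, PGRP-SA, CG42807, nec and Gp93 are given here as the immune genes and strong correlates among the genes named. Their slope on DptB differed between the subpopulation crosses in a test of the difference itself. PGRP-SA had r = 0.41 with DptB in pA1 x pB2 and 0.09 in pA2 x pB1 (limma interaction adjusted p = 0.0118). With Drs it had 0.36 and 0.16. CG42807 had 0.61 and 0.32 with DptB (adjusted p = 0.0118). The serpin nec had 0.48 and 0.21 with DptB (adjusted p = 0.022). Gp93, a chaperone of the endoplasmic reticulum that was named after its values were seen, had 0.43 and 0.17 with DptB (adjusted p = 0.0355). In all 4 the correlation was the larger in pA1 x pB2, which holds 63.4% of the crosses. Among the 22, p115, CG32512, shv and CG6675 had smaller adjusted p-values than these 4, and bun had the larger correlation in pA2 x pB1 (0.04 in pA1 x pB2 and -0.28 in pA2 x pB1). On ranks the differences of PGRP-SA and CG42807 passed (adjusted p = 0.0424 for each) and those of nec and Gp93 did not (0.0782 and 0.125). After removal of 10 further components only PGRP-SA of the 4 passed (0.00248), with 0.147 for CG42807, 0.211 for nec and 0.305 for Gp93.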

How the results depend on the processing

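The correlation of Drs with DptB was called under every alternative run, with r between 0.60 (without the 5% of crosses with the highest mean) and 0.70 (pA1 x pB2 alone). The variance share of the first axis, which only restates r, was 83.6% over all crosses. It was 85.1% in pA1 x pB2, 81.1% in pA2 x pB1, 82.1% after 10 further components and 80.2% without the highest crosses. The share of transcripts called depended far more on the setting. Against 8.27% for Drs and 18.7% for DptB, it was 0.75% and 1.53% in pA2 x pB1 alone, 4.16% and 9.04% after 10 further components, 2.21% and 9.26% without the highest 30 crosses, and 3.66% and 9.42% at an adjusted p under 0.01. Transcripts whose slope differed between Drs and DptB made up 3.27%, against 2.17% on ranks, 1.68% in pA1 x pB2, 0.117% in pA2 x pB1, 1.39% after 10 further components and 1.14% at an adjusted p under 0.01. Each group alone holds fewer crosses, and leaving out the highest crosses narrows the range of both members, but the cause of the smaller shares was not tested. Of 2024 values of named genes under alternatives, 1765 kept their side of the threshold, 11.8% lost the call and 18 gained it. A further 3 that were called in the main fit changed sign. These were in pA2 x pB1 alone: r = -0.0389 of Drs with pug, 0.0316 of DptB with bt and -0.0484 of DptB with Dif. Sign changes of values not called in the main fit were not counted. For example, r of DptB with prod was -0.10 over all crosses and 0.06 in pA2 x pB1 alone. The slope differences of PGRP-SB1, PGRP-LB and CG4757 passed in 5 of 6 alternatives, that of Rel in 4, that of cact in 3, and those of BaraA2, Drsl5, imd and akirin in 2 each. Covariates for array median and for fat body and haemocyte means, and the joint fit, were chosen after seeing the data. The marker means had r of only -0.01 and 0.06 (fat body) and -0.05 and -0.09 (haemocytes) with Drs and DptB, so they could not move the correlation of the members, and that setting tests nothing about cell content. No paired analysis was possible because the labels give the groups no shared replicate numbers. Signal over background, which limits weak transcripts, is not in the scores.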

Other observations

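The 8 genes with the most negative r with DptB were Jabba, AkhR, Acer, CG5023, Lsd-2, Lsd-1, phu and Orct, from -0.42 to -0.33. With Drs they were AkhR, Lsd-2, Jabba, Cdc7, CG4822, CG5023, Mcad and Argk1, from -0.32 to -0.25. No list of their kind was tested, and those described were picked after their values were seen. AkhR, the receptor of adipokinetic hormone, had r = -0.32 with Drs and -0.41 with DptB. In pA1 x pB2 alone AkhR had -0.39 and -0.49, and in pA2 x pB1 alone -0.17 and -0.27. Jabba, a lipid droplet protein, had -0.29 with Drs and -0.42 with DptB. The lipid droplet coat genes Lsd-2 and Lsd-1 had -0.30 and -0.24 with Drs and -0.35 and -0.35 with DptB. Spearman's rho was -0.29 for AkhR with Drs and -0.38 with DptB, and every permutation p of these 4 genes was the smallest possible, 1e-05. In the joint fit Jabba had a slope of -0.00 on Drs and -0.42 on DptB, a difference of 0.42 (adjusted p = 0.00216). After 10 further components this difference was 0.27 (adjusted p = 0.0536), and in pA2 x pB1 alone it was 0.33 (adjusted p = 0.488).

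Acer, related to angiotensin-converting enzyme, had r = -0.22 with Drs and -0.36 with DptB. Nep7, a neprilysin-like gene, went the other way, with r = 0.25 with Drs and 0.42 with DptB and a slope difference of -0.51 (adjusted p = 0.000109). That difference passed in 5 of 6 alternatives and not in pA2 x pB1 alone (-0.44, adjusted p = 0.265). Both genes had weaker r in pA2 x pB1. For Acer it was -0.31 with Drs and -0.46 with DptB in pA1 x pB2, and -0.05 and -0.19 in pA2 x pB1. For Nep7 it was 0.36 and 0.53 in pA1 x pB2, and 0.08 and 0.24 in pA2 x pB1. Their slopes did not pass limma's interaction test between groups (adjusted p from 0.082 to 0.162).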
